A study of Mus musculus with 2 samples.

Results

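Collagen genes are the genes whose symbol is Col, a type number, the letter a and a chain number (for example Col4a1), taken here with at least 20 unique molecular identifiers (UMIs, counted RNA molecules) over both libraries. All 44 genes with such a symbol met that minimum, of 32285 genes in the count table. Together they held 135291 UMIs, from 21 for Col24a1 to 22863 for Col27a1. The rule used no comparison between groups or cell types.

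All animals were untreated C57BL/6J mice, 18 months old. One group was wild-type (WT) and the other lacked CD200R1 (CD200R1-/-, here KO), an inhibitory receptor best known from myeloid cells. Brains perfused with saline were dissociated, cells binding CD11b magnetic particles were taken, and 1 droplet single-cell library was made per group with 10x 3′ chemistry. How many mice went into each library is not stated, and although the study title names Parkinson's disease the labels give these mice no disease model. The targeted gene, Cd200r1, had 1531 UMIs in the WT library and 1505 in the KO library over all barcodes, or 12.0 and 11.5 CPM (UMIs scaled to a total of 1000000). The deleted bases are not given in the sources used here, and 3′ tags outside a deletion do not check it, so WT and KO below mean the libraries so labelled.

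Collagens are proteins of 3 chains wound into a triple helix, and each chain has its own gene. Fibrillar collagens form the cable-like fibrils of connective tissue, collagen IV forms the sheet-like network of basement membranes, collagen VI forms beaded filaments, and the fibril-associated, network-forming, multiplexin and membrane-bound types decorate, link or anchor these structures. In the brain, connective tissue is restricted to the meninges, the choroid plexus stroma and the walls of larger vessels, whereas basement membranes surround every vessel and underlie the glial limiting membrane.

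The 6 collagen IV genes lie in 3 head-to-head pairs, and the bases between or before their starts are shown because both chains of a pair were followed together across cell classes. On GRCm38, Col4a1 (chr8:11198423-11312826, minus strand) and Col4a2 (chr8:11312805-11449287, plus strand) start 21 bases apart with overlapping first exons, so no gap separates them. Col4a4 (chr1:82448423-82586849, minus strand) and Col4a3 (chr1:82586921-82722059, plus strand) are separated by 71 bases. Col4a6 (chrX:141165403-141474076, minus strand) and Col4a5 (chrX:141475385-141689234, plus strand) are separated by 1308 bases. The sequences are from RefSeq (GRCm38.p6), 5′ to 3′, and capitals mark matches, on either strand, to a CCAAT box, a GC box (GGGCGG) or a TATA box (TATAAA). The gap is on the Col4a3 strand at chr1:82586850-82586920, the Col4a6 stretch is on the minus strand at chrX:141474077-141474326, and the Col4a5 stretch is on the plus strand at chrX:141475169-141475384.
Col4a4-Col4a3 gap: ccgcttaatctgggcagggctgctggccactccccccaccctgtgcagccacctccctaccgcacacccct
Col4a6 upstream: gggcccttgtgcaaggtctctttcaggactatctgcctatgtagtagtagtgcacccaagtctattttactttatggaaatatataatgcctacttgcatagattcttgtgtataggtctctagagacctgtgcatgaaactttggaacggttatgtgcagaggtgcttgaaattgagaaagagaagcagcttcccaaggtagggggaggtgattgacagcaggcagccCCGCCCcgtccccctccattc
Col4a5 upstream: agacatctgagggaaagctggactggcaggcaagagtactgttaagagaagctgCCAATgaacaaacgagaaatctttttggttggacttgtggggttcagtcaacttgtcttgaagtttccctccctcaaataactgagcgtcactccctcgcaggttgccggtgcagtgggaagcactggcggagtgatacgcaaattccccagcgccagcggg
The 71-base gap, with a GC content of 69.0%, held none of the 3 motifs. Of 32851 promoter windows of that length, 13.3% held the CCAAT box, 20.7% the GC box and 4.41% the TATA box. The 250 bases before Col4a6 held 1 GC box, read as CCGCCC on this strand, as did 32.7% of windows of that length. The 216 bases before Col4a5 held 1 CCAAT box, as did 30.8% of windows of that length. These matches describe the letters only. RefSeq promoter entries were found for 35 of the 44 genes.

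The libraries held 18228 (WT) and 19159 (KO) barcodes, the cell numbers the study states, with medians of 3597 and 3975 UMIs, and 16460 and 17064 cells were kept. Doublet calling removed 0.849% and 3.37% of cells against 13.3% and 14.1% expected from the number of cells, so doublets remain, and 103 barcode sequences occurred in both libraries. Cells were clustered without collagen genes and clusters were called "X-like" from marker genes with no collagen among them, and 14 classes reached 50 cells in both libraries. CD11b is a myeloid surface protein, yet the vascular, glial and epithelial classes below passed the selection. Levels are given as CPM of the class in each library, with 95% exact intervals that cover counting error only. Because each group is 1 library, no test between WT and KO was possible. A gene was called higher or lower in KO when (CPM + 10) differed by at least 1.5-fold, among genes with at least 20 UMIs in the class over both libraries.

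Of the 14 classes, fibroblast-like cells gave collagen genes the largest share of their RNA. Summed over the 44 genes the level was 2920 CPM in WT (95% interval 2838 to 3003) and 2766 CPM in KO (2701 to 2831). Olfactory ensheathing glia-like cells, which wrap olfactory axons, followed with 1603 and 1640 CPM, and smooth muscle-like cells with 1166 and 1424 CPM. Pericyte-like cells held 971 and 903 CPM, choroid plexus epithelium-like cells 799 and 772, ependymal-like cells 589 and 530, astrocyte-like cells 472 and 466, and endothelial-like cells 464 and 439. Microglia-like cells held 290 and 289 CPM, and T cell-like and B cell-like cells were lowest. Of the collagen UMIs in kept cells, endothelial-like cells nevertheless supplied 23.5% (WT) and 17.5% (KO) because they were abundant. Microglia-like cells, also abundant, supplied 19.8% and 20.9%, against 8.46% and 12.3% from fibroblast-like cells. Cells in other or unnamed clusters supplied 15.7% and 17.2%.

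By mean CPM, 13 of the 44 genes were highest in fibroblast-like cells, 8 in olfactory ensheathing glia-like cells, 5 each in ependymal-like and smooth muscle-like cells, 3 each in choroid plexus-like and pericyte-like cells, 2 each in astrocyte-like and microglia-like cells, and 1 each in B cell-like, CNS-associated macrophage-like and endothelial-like cells. The class of highest level was the same in both libraries for 33 genes and differed for 11. The tally places every gene, however low: the B cell-like entry, Col10a1, had 2 and 0 UMIs in that class, and Col24a1 had 3 and 0 in pericyte-like cells. Level passed 10 CPM in some class for 35 genes, in 1 class only for 8, and in 5 or more classes for 13. The collagen repertoire was therefore divided among connective tissue, glial, epithelial and vascular classes rather than carried by fibroblast-like cells alone.

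**Figure D1:**
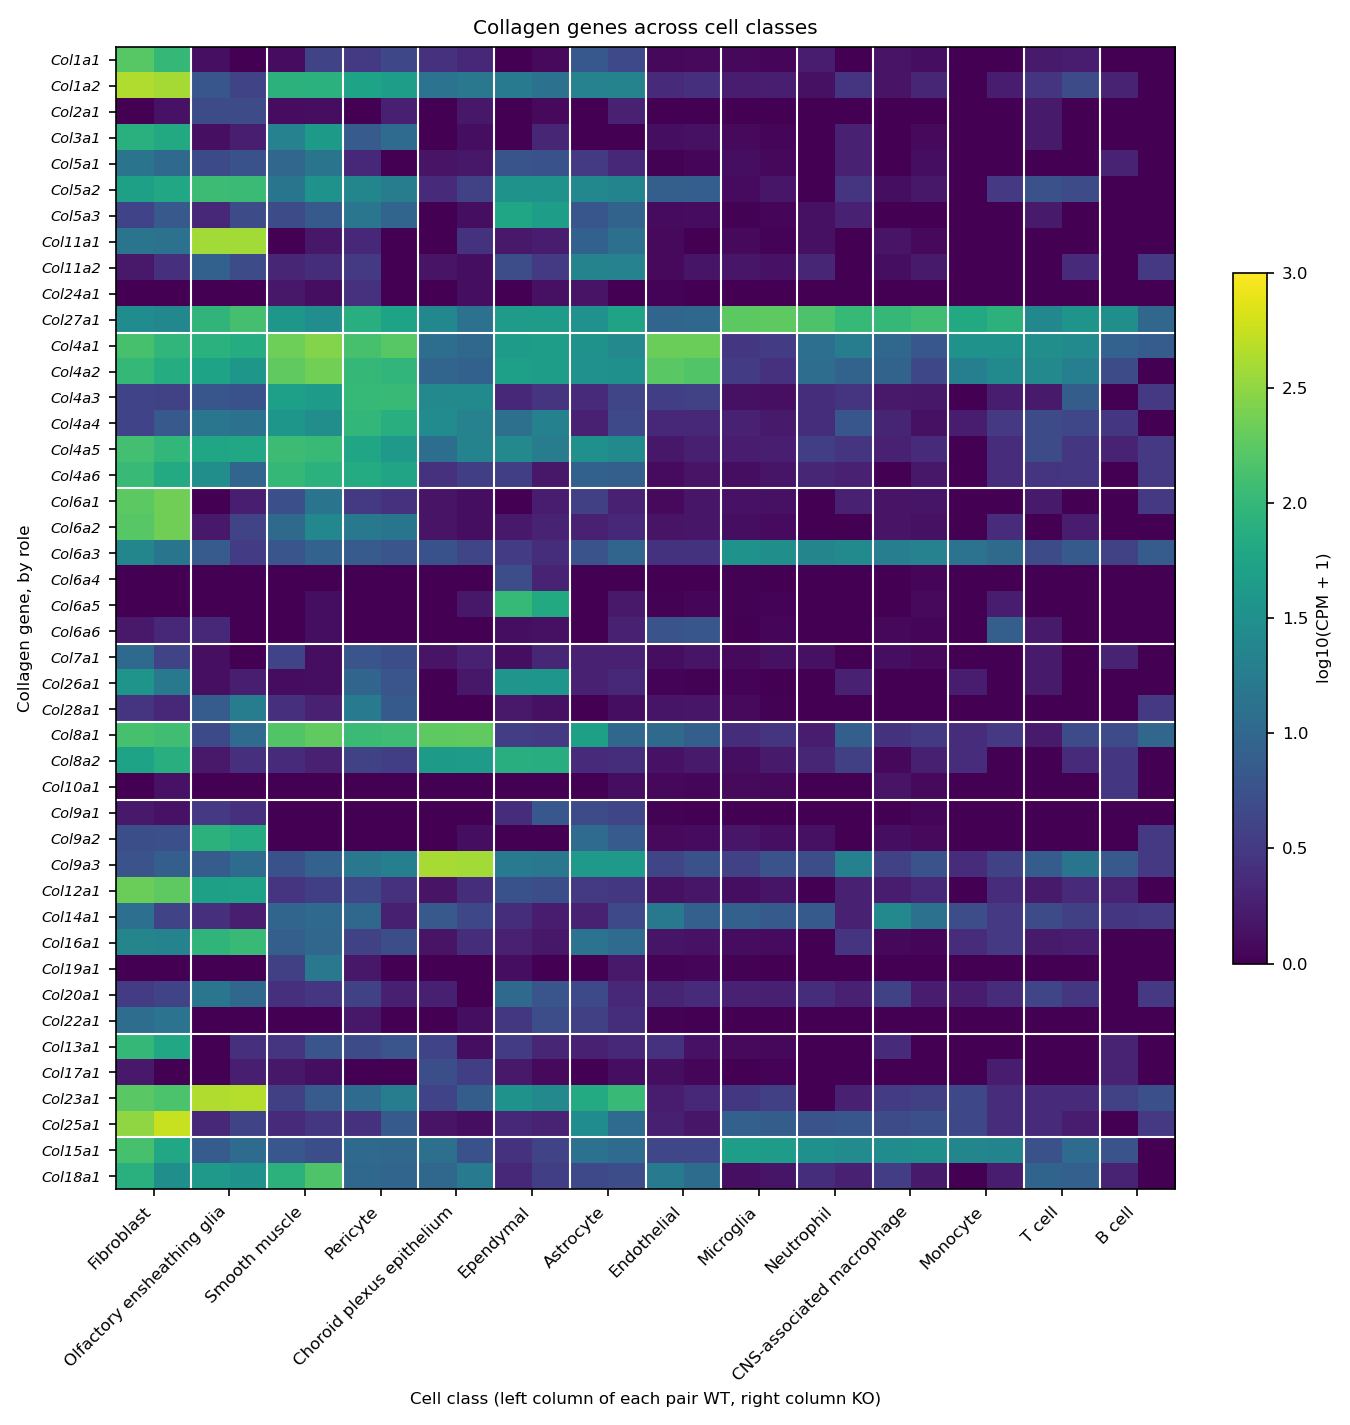
Heat map of the 44 collagen genes (rows, grouped by role) in 14 cell classes (columns, WT left and KO right in each pair), coloured by log10(CPM + 1). Fibroblast-like cells show the widest set of genes, Col11a1 and Col23a1 stand out in olfactory ensheathing glia-like cells, Col9a3 in choroid plexus-like cells and Col27a1 in the microglia-like column.

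Among the 11 fibrillar genes, the chains of collagen I and III marked fibroblast-like cells. Col1a2, a chain of collagen I, stood at 432 CPM in WT (402 to 465) and 393 CPM in KO (369 to 418) there, about 5.01 times its mean level in smooth muscle-like cells, the next class. At least 1 Col1a2 UMI was seen in 52.3% and 53.1% of fibroblast-like cells, with median depths of 1806 and 2223 UMIs, against 0.723% and 0.801% of microglia-like cells, with median depths of 8130 and 6745. When each cell was thinned to 1000 UMIs (158 of 235 and 202 of 307 fibroblast-like cells, 3489 of 3595 and 4082 of 4122 microglia-like cells were deep enough) the shares were 27.8% and 29.2% against 0.115% and 0.0980%. Col1a1, its partner chain, was more narrowly placed, at 166 and 97.7 CPM in fibroblast-like cells and a mean of 4.67 CPM in the next class. Col1a1 made up 27.7% (24.9 to 30.6) and 19.9% (17.7 to 22.2) of the collagen I UMIs in fibroblast-like cells, but 0.327% and 3.73% in smooth muscle-like cells. In pericyte-like cells 4 Col1a1 UMIs stood against 96 of Col1a2 in WT, and 4 against 55 in KO. Such a share depends on how well each gene's 3′ end is captured, so it is compared between classes only. The mural classes thus carried Col1a2 with little Col1a1, and they were not alone in this. In ependymal-like cells 0 Col1a1 UMIs stood against 56 of Col1a2 in WT, and 1 against 68 in KO. The Col1a1 share was 11.8% and 7.14% in choroid plexus-like and 11.9% and 9.76% in endothelial-like cells.

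Col3a1, the chain of collagen III, stood at 80.2 and 65.3 CPM in fibroblast-like cells and 20.1 and 41.8 CPM in smooth muscle-like cells. Of the collagen V chains, which help start fibrils, Col5a2 was highest in olfactory ensheathing glia-like cells (112 and 110 CPM), Col5a1 reached a mean of only 11.3 CPM in fibroblast-like cells, and Col5a3 was highest in ependymal-like cells (56.7 and 46.8 CPM), 4.55 times the next class. Col5a2 and Col5a3 therefore peaked in different classes. Col5a1 was close to level in fibroblast-like and smooth muscle-like cells (mean 11.0 CPM in the latter), and its highest class differed between the libraries. Col11a1, a collagen XI chain known from cartilage, reached 379 CPM (358 to 401) and 387 CPM (353 to 423) in olfactory ensheathing glia-like cells, 29.7 times its mean level in fibroblast-like cells. Its partner Col11a2 held few UMIs there (Col11a1 was 98.1% and 99.0% of the pair) and was highest in astrocyte-like cells, at 20.9 and 20.2 CPM. Col27a1, a fibrillar chain with a short helix, was highest in microglia-like cells, at 176 CPM (172 to 180) and 179 CPM (175 to 183), and a Col27a1 UMI was seen in 64.6% and 63.8% of them (15.2% and 15.4% after thinning). Neutrophil-like cells held 145 and 101 CPM and CNS-associated macrophage-like cells 97.6 and 120 CPM of it. The 8 microglia markers summed to 7960 and 7894 CPM in neutrophil-like and 7832 and 9588 CPM in macrophage-like cells, against 13655 and 13772 CPM in microglia-like cells, and their part in these Col27a1 values was not tested. Col2a1 and Col24a1 stayed under 10 CPM in every class.

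Collagen IV separated the vascular classes chain by chain. Col4a1, a chain of the ubiquitous network, was highest in smooth muscle-like cells (216 CPM, 201 to 231, in WT and 279 CPM, 261 to 297, in KO) and next in endothelial-like cells (211 CPM, 206 to 216, and 214 CPM, 208 to 220). Col4a2 followed the same order, at 186 and 228 CPM in the former and 168 and 154 CPM in the latter. In WT the Col4a1 intervals of these classes overlapped, and in KO they did not. Col4a1 was 53.6% and 54.9% of the pair in smooth muscle-like, 55.6% and 58.2% in endothelial-like and 57.1% and 57.0% in fibroblast-like cells.

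The chains of the second pair, Col4a3 and Col4a4, known from kidney and lung basement membranes, were highest in pericyte-like cells. There Col4a3 stood at 101 CPM (86.6 to 117) and 106 CPM (88.2 to 126), and Col4a4 at 95.2 CPM (81.4 to 111) and 77.0 CPM (61.9 to 94.6), against means of 46.2 and 33.5 CPM in smooth muscle-like cells. Endothelial-like cells held only 2.57 and 2.86 CPM of Col4a3. The pair was nearly even in pericyte-like cells (Col4a3 51.4% and 57.9%) and smooth muscle-like cells (56.4% and 59.8%), but in ependymal-like cells Col4a3 was 9.09% (2.53 to 21.7) and 8.62% (4.21 to 15.3) of it. Ependymal-like cells thus carried Col4a4 (11.7 and 19.7 CPM) almost without Col4a3.

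Of the X-linked pair, Col4a5 was close to level in fibroblast-like cells (125 and 96.1 CPM) and smooth muscle-like cells (112 and 106 CPM), and the class of highest level changed between libraries. Col4a6 behaved likewise, with 105 and 68.0 CPM against 98.2 and 81.4 CPM. Col4a5 was 54.3% and 58.6% of the pair in fibroblast-like, 53.2% and 56.6% in smooth muscle-like and 45.7% and 42.0% in pericyte-like cells. It was 80.5% and 78.8% in astrocyte-like and 90.5% and 96.9% in ependymal-like cells, where Col4a6 had 9 and 3 UMIs. Both genes were under 1 CPM in endothelial-like cells, in both libraries. In olfactory ensheathing glia-like cells Col4a5 and Col4a6 had 183 and 96 UMIs in WT, and 76 and 11 in KO. Of 22 collagens measured in that class, 1 was higher in KO (background 1.54% of 11795 genes). Another 1, Col4a6, was lower (log2 ratio -1.09, background 2.35%). Over the 14 class means Pearson's r on the CPM scale was 0.989 for Col4a1 with Col4a2, 0.981 for Col4a3 with Col4a4 and 0.939 for Col4a5 with Col4a6. Values this high were not particular to head-to-head pairs. For Col6a1 with Col6a2, which do not lie head to head, r was 0.997. For Col1a1 with Col1a2, on different chromosomes, it was 0.980. The other pairs compared ran from -0.087 for Col9a2 with Col9a3 to 0.536 for Col5a1 with Col5a2. These describe classes that share libraries and depth and carry no test.

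**Figure D2:**
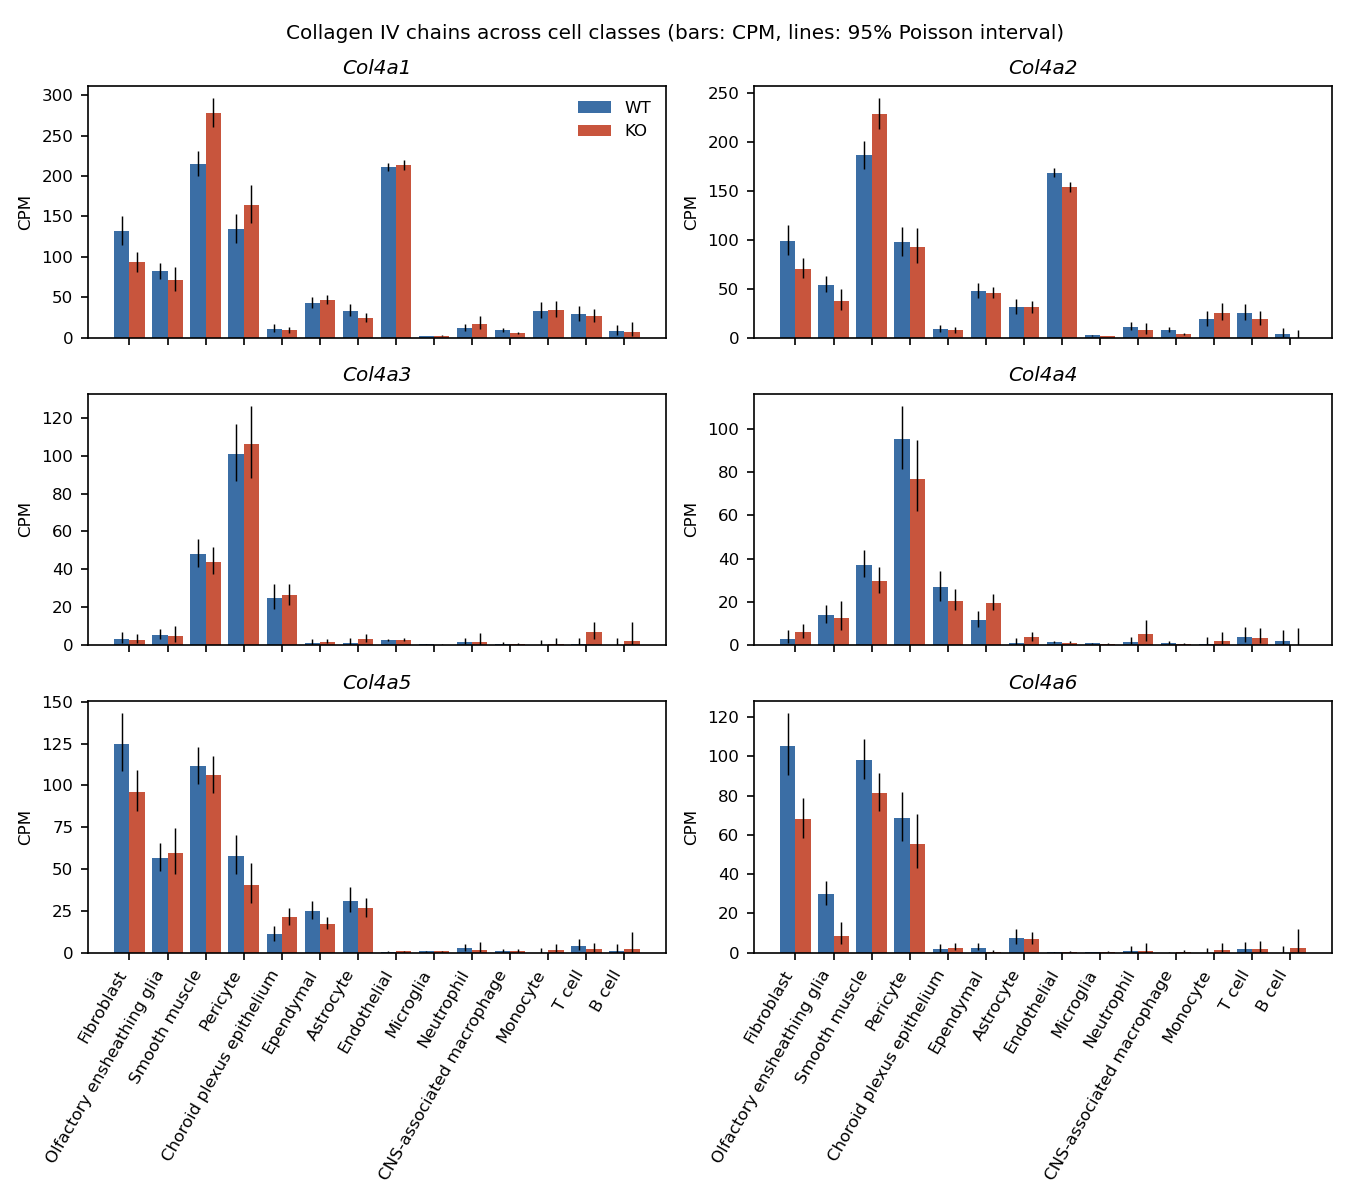
CPM of the 6 collagen IV genes in 14 cell classes, 1 panel per gene with its own vertical scale starting at 0, blue bars for WT and red bars for KO, lines showing the 95% Poisson interval. Col4a1 and Col4a2 are high in smooth muscle-like and endothelial-like cells, and Col4a3 and Col4a4 in pericyte-like cells. Col4a5 and Col4a6 are high in fibroblast-like and mural cells, with almost nothing in endothelial-like cells. Col4a5 is also present in olfactory ensheathing glia-like cells.

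Collagen VI was split among fibroblast-like cells, ependymal-like cells and myeloid classes, the last led by microglia-like cells. Collagen VI summed to 364 and 458 CPM in fibroblast-like and 108 and 69.8 CPM in ependymal-like cells. It summed to 33.9 and 30.9 CPM in microglia-like and 19.3 and 45.9 CPM in smooth muscle-like cells. Col6a1 and Col6a2, 2 of its 3 classical chains, stood at 176 and 222 CPM and at 165 and 221 CPM in fibroblast-like cells, 22.6 and 11.3 times their mean in the next class. Col6a3, the third classical chain, was highest in microglia-like cells, at 33.2 CPM (31.4 to 35.0) and 30.2 CPM (28.5 to 31.9), with 22.7 and 13.8 CPM in fibroblast-like cells. Of the Col6a1 and Col6a3 UMIs, Col6a1 was 88.6% and 94.1% in fibroblast-like but 1.21% and 1.19% in microglia-like cells. The microglia-like class therefore held Col6a3 almost without its partners, and other myeloid classes did likewise. In neutrophil-like cells Col6a1 and Col6a3 had 0 and 60 UMIs in WT, and 1 and 29 in KO. In CNS-associated macrophage-like cells they had 3 and 125 UMIs in WT, and 5 and 219 in KO. The part of microglia markers in these counts was not tested. Col6a5, a later-described alternative chain, was ependymal-like, at 101 CPM (90.7 to 112) and 65.3 CPM (58.7 to 72.5), 234 times its mean in the next class. That mean, 0.355 CPM in monocyte-like cells, stands for fewer than 3 UMIs, so the size of the fold is not firm. Col6a4 was also highest in ependymal-like cells, at 4.09 and 0.928 CPM, and Col6a6 had its highest mean in endothelial-like cells at 4.86 and 5.41 CPM.

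The 9 fibril-associated genes peaked in 6 classes. Col12a1, found on collagen I fibrils, was highest in fibroblast-like cells, at 212 and 179 CPM. Col9a3, a collagen IX chain, was highest in choroid plexus-like cells, at 406 CPM (381 to 433) and 378 CPM (357 to 399), 9.69 times the next class. Its partner Col9a2 was highest in olfactory ensheathing glia-like cells, at 83.3 and 69.1 CPM, and had 0 and 1 UMI in choroid plexus-like cells against 953 and 1304 for Col9a3. In olfactory ensheathing glia-like cells Col9a2 was 92.8% and 87.1% of the pair. Col9a1 was highest in astrocyte-like cells in WT (3.99 CPM) and in ependymal-like cells in KO (5.57 CPM). Col9a2 and Col9a3 thus peaked in different classes. Col16a1 was highest in olfactory ensheathing glia-like cells (91.1 and 104 CPM). Col20a1 and Col22a1 peaked at means of 11.8 and 11.9 CPM, in olfactory ensheathing glia-like and fibroblast-like cells. Col19a1 peaked in smooth muscle-like cells and Col14a1 in CNS-associated macrophage-like cells.

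The network-forming chains of collagen VIII also parted. Col8a1 was high in choroid plexus-like (181 and 184 CPM) and smooth muscle-like cells (151 and 186 CPM), and the order of these classes differed between the libraries. Col8a2 was high in ependymal-like (74.2 and 73.3 CPM) and fibroblast-like cells (53.8 and 77.9 CPM). Col8a1 was 99.1% and 99.5% of the pair in smooth muscle-like cells, 81.2% and 80.5% in choroid plexus-like cells and 3.42% and 2.95% in ependymal-like cells. Col10a1, a chain of hypertrophic cartilage, had 38 UMIs in all.

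Of the membrane-bound collagens, Col23a1 was highest in olfactory ensheathing glia-like cells, at 441 and 469 CPM, then in fibroblast-like cells, at 170 and 141 CPM. Col25a1, whose shed ectodomain is known from amyloid plaques, and Col13a1, known from the neuromuscular junction, were highest in fibroblast-like cells. A Col25a1 UMI was seen in 14.5% and 20.2% of those cells (9.49% and 14.9% after thinning). Col17a1, of hemidesmosomes, peaked at a mean of 3.43 CPM in choroid plexus-like cells. The multiplexins, basement membrane collagens that release anti-angiogenic fragments, differed from each other. Col15a1 was highest in fibroblast-like cells (132 and 60.5 CPM) with 45.9 and 44.7 CPM in microglia-like cells, and Col18a1 was highest in smooth muscle-like cells (84.4 and 148 CPM). Of the remaining types, Col26a1 was highest in ependymal-like cells (35.6 and 36.2 CPM), while Col7a1, of anchoring fibrils, and Col28a1 peaked at means of 6.37 and 11.9 CPM.

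Between WT and KO, fibroblast-like cells showed lower levels of several matrix collagens and a higher level of Col25a1 in KO. The class held 235 and 307 cells, and the summed collagen level was 0.947 times as high in KO (0.913 to 0.983). Of 30 genes measured, 1 was higher (background 2.16% of 11733 genes) and 5 were lower (background 2.78%). The median log2 ratio was -0.24 over the 30 genes, against -0.01 over all genes measured. Col25a1 was the higher gene, at 321 CPM (294 to 349) in WT and 556 CPM (528 to 586) in KO, a log2 ratio of 0.78. Col15a1 stood at 132 CPM (115 to 151) and 60.5 CPM (51.3 to 70.9), a log2 ratio of -1.01. Col18a1 stood at 79.0 CPM (66.1 to 93.6) and 30.1 CPM (23.7 to 37.6), a log2 ratio of -1.15. Intervals of the libraries did not overlap for these 3 genes. Col1a1 (166 and 97.7 CPM) and Col26a1 (34.7 and 15.4 CPM) were also lower, with log2 ratios of -0.71 and -0.81. Col14a1, with 19 and 8 UMIs in the class, was the fifth lower gene and was named after its values were seen. Of the other leading genes, Col1a2 (log2 ratio -0.13), Col12a1 (-0.23), Col23a1 (-0.26) and Col8a1 (-0.16) lay below 0, and Col6a1 (0.32) and Col6a2 (0.40) above it, all short of the 1.5-fold.

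By role, the collagen IV genes together stood at 467 and 337 CPM in fibroblast-like cells (ratio 0.722, 0.654 to 0.796) and the multiplexins at 211 and 90.6 CPM (0.429, 0.362 to 0.508). The fibrillar (ratio 0.856), fibril-associated (0.864) and the anchoring and other genes (0.429) also had ratios under 1. Collagen VI stood at 364 and 458 CPM (1.26, 1.14 to 1.39) and the transmembrane genes, which include Col25a1, at 589 and 760 CPM (1.29, 1.19 to 1.39). The hexagonal network genes stood at 188 and 197 CPM (1.05, 0.908 to 1.21). Thus the collagen VI and transmembrane sums were higher in KO and the hexagonal network sum did not separate the libraries. The sums of the other 5 roles were lower. Members did not all share the direction of their sum. Among the transmembrane genes Col25a1 was higher (log2 ratio 0.78), whereas Col23a1 (-0.26) and Col13a1 were lower. In collagen VI, Col6a1 (0.32) and Col6a2 (0.40) were higher and Col6a3 was lower.

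These values depended on the clusters that made up the class. Cluster 21 (150 and 213 cells), led by Dcn, Ptgds, Lama1 and Slc6a13, held 52.6% of the class's UMIs in WT and 44.4% in KO. Cluster 29 (85 and 94 cells), led by Prg4, Igfbp6, Ccn3 and Slc47a1 in which 3 of the 8 fibroblast markers were raised (6 of 8 in cluster 21), held the rest. Median depth was 1292.5 and 1373 UMIs in cluster 21, but 2512 and 8210 UMIs in cluster 29. Most cells of cluster 29 lay in a deep sub-cluster (36 and 57 cells, median 14178 UMIs) and a shallow one (36 and 30 cells, median 1194.5). The part of this depth difference in the values per cluster, those of Col25a1 included, was not tested. In cluster 21 the summed collagen level was 2972 and 2160 CPM (ratio 0.727, 0.688 to 0.768). In cluster 29 it was 2862 and 3250 CPM (1.14, 1.08 to 1.20). The class sum therefore joined opposite directions. In cluster 21, 6 of 23 genes were past the fold, all lower, where 11.1% of all genes were past it in either direction, and in cluster 29 0 of 17 were, against 8.66%.

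The genes themselves divided between the clusters. Col25a1 had 2 and 3 UMIs in cluster 21 but 534 and 1403 in cluster 29, where it stood at 673 CPM (617 to 733) and 999 CPM (948 to 1053), a ratio of 1.48 (1.34 to 1.64). Collagen VI followed, with Col6a1 at 299 and 367 CPM in cluster 29 against 64.9 and 40.9 CPM in cluster 21, and Col6a2 at 315 and 375 CPM against 29.6 and 27.6 CPM. Col15a1 was confined mainly to cluster 21, at 247 CPM (215 to 282) and 132 CPM (111 to 155), against 5.04 and 3.56 CPM. Col18a1 likewise stood at 148 CPM (124 to 176) and 65.9 CPM (51.7 to 82.7) there, against 2.52 and 1.42 CPM in cluster 29. Col13a1, at 184 and 140 CPM in cluster 21, had 1 and 0 UMIs in cluster 29. Col1a1 was lower in KO in both, at 183 and 96.1 CPM in cluster 21 and 146 and 99.0 CPM in cluster 29, whereas Col1a2 stood at 451 and 329 CPM in the former and 412 and 444 CPM in the latter. In both libraries multiplexin and Col13a1 transcripts lay in the Dcn-led cluster and Col25a1 and collagen VI transcripts in the Prg4-led cluster.

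**Figure D3:**
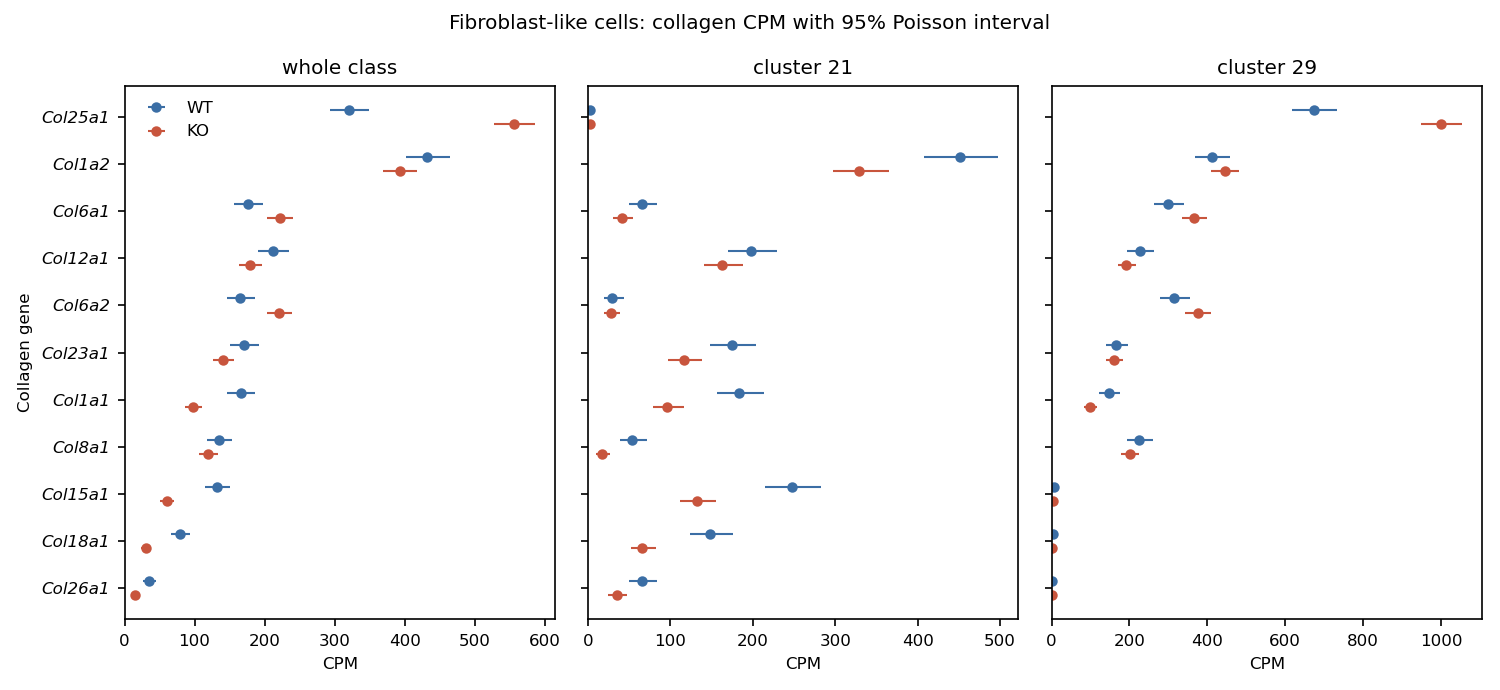
CPM of the 8 leading collagen genes and the genes past the fold with at least 50 UMIs in fibroblast-like cells, for the whole class, cluster 21 and cluster 29, with WT in blue and KO in red and lines for the 95% Poisson interval (each panel has its own horizontal scale). Col25a1 lies almost wholly in cluster 29 and Col15a1, Col18a1 and Col26a1 almost wholly in cluster 21.

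Markers of other classes were present in fibroblast-like cells and differed between libraries. The 8 fibroblast markers summed to 4019 and 2446 CPM, the 8 endothelial markers to 3917 and 3130 CPM (against 19090 and 18770 CPM in endothelial-like cells), and the 8 choroid plexus markers to 3368 and 5378 CPM, with 0 fibroblast and 0 endothelial markers at 0 UMIs in either library. A sub-cluster of 22 and 32 cells with a median of 17446 UMIs was led by the endothelial genes Flt1, Cldn5 and Slco1a4. In another sub-cluster, of 42 and 54 cells led by Lum and Lama1 and free of such leading genes, the level summed over all collagen members was 4826 and 3931 CPM (0.815, 0.752 to 0.882), with Col18a1 at 199 and 97.3 CPM and Col15a1 at 279 and 275 CPM. Leaving out all cells with markers of a second class (43.8% and 43.0% of the class) gave a summed ratio of 1.04. Col25a1, Col18a1 and Col26a1 stayed past the fold there, and Col1a1, Col14a1 and Col15a1 did not, while Col4a6, Col6a3 and Col13a1 were lower past the fold. The part of these markers in the differences was not tested further.

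Genes that work with collagens were mostly within the fold in fibroblast-like cells, and each count below is to be read against the 2.16% of all genes that were higher and the 2.78% that were lower in this class. Of 20 measured genes for procollagen folding and modification, 1 was lower, Fkbp10 (34.7 and 19.4 CPM), a chaperone of procollagen. Of 10 genes for cleavage and cross-linking, 1 was lower, Loxl1 (34.7 and 12.7 CPM), of the lysyl oxidase family. Of 12 basement membrane partners, 3 were lower, namely the laminin chain Lamb1 (56.8 and 20.6 CPM), the proteoglycan Hspg2 (63.4 and 34.0 CPM) and the nidogen Nid2 (19.1 and 9.10 CPM), and Agrn stood at 38.9 and 56.2 CPM. Of 19 interstitial matrix companions, 3 were lower. These were Postn (50.2 and 14.6 CPM), Fbln5 (67.6 and 34.4 CPM) and the tenascin Tnc, with 58 UMIs in WT and 1 in KO. Fmod, a proteoglycan that binds collagen fibrils, stood at 26.3 and 38.8 CPM. Of 10 collagen receptors none was past the fold, from Itga1 (154 and 101 CPM) to Itga10 (35.9 and 58.6 CPM), both integrin chains that bind collagen. Of 11 proteases and inhibitors, Timp4 (8.37 and 17.8 CPM) was higher, and Ctsk (70.6 and 36.0 CPM) and Timp3 (1415 and 858 CPM) were lower. The median log2 ratio of the lists ran from -0.37 for basement membrane partners to 0.07 for receptors.

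Smooth muscle-like cells showed the opposite balance, with 6 collagens higher in KO and none lower. The class held 497 and 582 cells, and the summed collagen level was 1.22 times as high in KO (1.17 to 1.27). Of 24 genes measured, 6 were higher (background 1.68% of 12128 genes) and 0 were lower (background 0.528%), with a median log2 ratio of 0.28 against -0.01 over all genes. Col18a1 stood at 84.4 CPM (75.2 to 94.3) and 148 CPM (135 to 161), a log2 ratio of 0.74. Col3a1 stood at 20.1 CPM (15.8 to 25.3) and 41.8 CPM (35.3 to 49.2), and Col5a2 at 13.6 CPM (10.1 to 17.9) and 32.6 CPM (26.9 to 39.2). The libraries did not overlap within these intervals. Col6a1 (4.35 and 13.3 CPM), Col6a2 (9.80 and 24.2 CPM) and Col19a1 (10 and 52 UMIs) were the other 3. Col4a1, Col4a2 and Col8a1 had log2 ratios of 0.36, 0.28 and 0.28, and Col4a5, Col4a6, Col1a2 and Col4a3 of -0.07, -0.24, -0.02 and -0.10.

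None of the 6 genes was past the fold when 1 small cluster was left out. Cluster 32, in which all 8 smooth muscle markers and 2 of 8 fibroblast markers were raised, held 25 of 497 cells in WT (5.03%, 3.28 to 7.34) and 66 of 582 cells in KO (11.3%, 8.88 to 14.2), and 10.0% and 23.2% of the class's UMIs. Its level summed over all collagen members was 2593 and 2875 CPM, against 1007 and 986 CPM in cluster 10, which held the other cells. Within cluster 32 Col18a1 stood at 500 CPM (430 to 577) and 537 CPM (488 to 591), and within cluster 10 at 38.1 CPM (31.7 to 45.4) and 30.05 CPM (23.8 to 37.4). Col3a1 stood at 119 and 147 CPM in cluster 32 against 9.07 and 10.1 CPM in cluster 10, and Col5a2 at 78.8 and 106 CPM against 6.35 and 10.5 CPM. Col19a1 was found almost only in cluster 32, with 10 and 50 UMIs there (27.2 and 62.2 CPM, ratio 2.29, 1.15 to 5.07) and 0 and 2 UMIs in cluster 10. Col6a2 was higher in KO within cluster 10 too, at 4.84 and 12.0 CPM (ratio 2.48, 1.32 to 4.85). Without cluster 32 the summed ratio was 0.979 (0.930 to 1.03), 0 of 19 genes were past the fold where 2.07% of all genes were (Col6a1 and Col19a1 were no longer measured), and the log2 ratio of Col18a1 was -0.26. Endothelial markers summed to 380 and 916 CPM and choroid plexus markers to 2834 and 5738 CPM in the class, whose own markers summed to 26275 and 28087 CPM, and their part in the result was not tested.

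**Figure D4:**
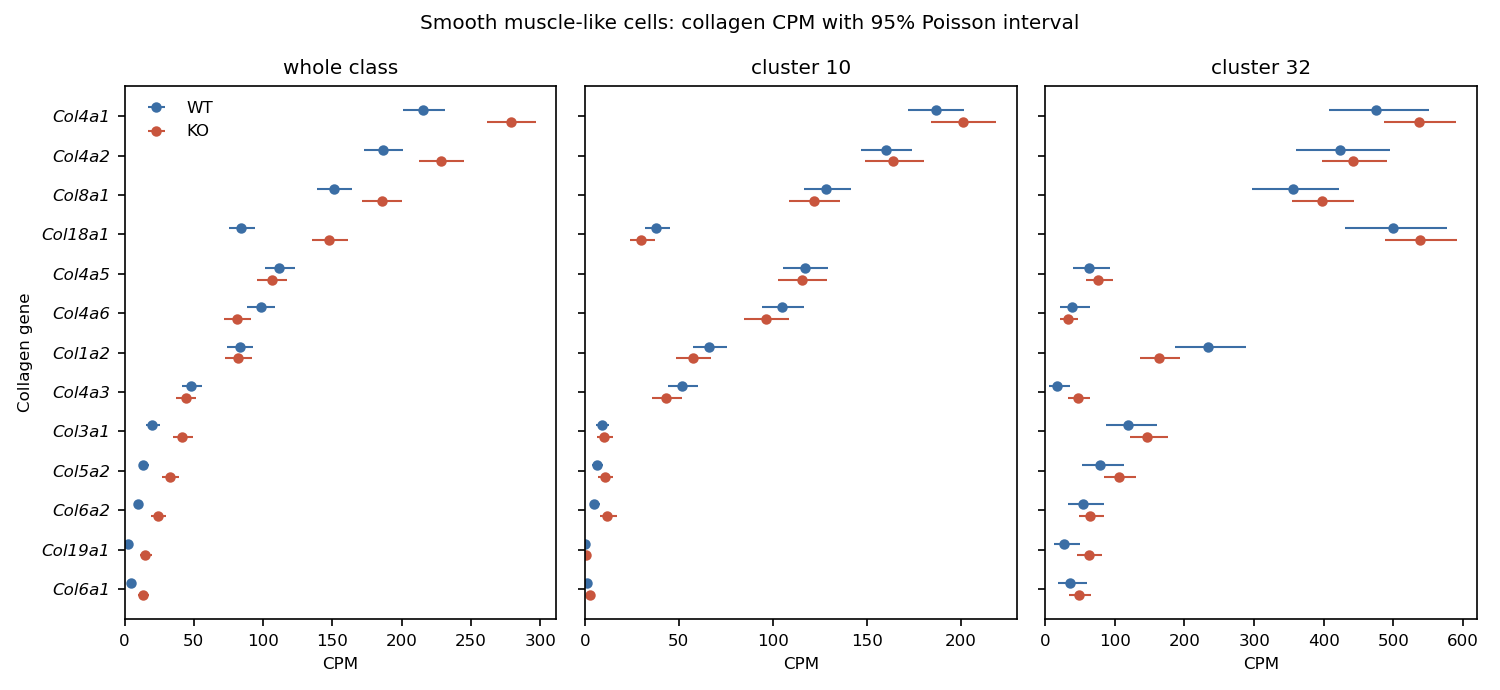
CPM of the 8 leading collagen genes and the genes past the fold with at least 50 UMIs in smooth muscle-like cells, for the whole class, cluster 10 and cluster 32, with WT in blue and KO in red and lines for the 95% Poisson interval (each panel has its own horizontal scale). The Col18a1 intervals of WT and KO are apart in the whole class and overlap within both clusters, and cluster 32 is higher than cluster 10 for Col3a1, Col5a2, Col18a1 and Col19a1.

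Pericyte-like cells differed little between libraries. The class held 864 and 705 cells, and the summed ratio was 0.930 (0.860 to 1.00). Of 19 genes measured, 0 were higher (background 1.96% of 10616 genes) and 1 was lower (background 2.25%). That gene, Col28a1, had 28 and 7 UMIs (15.9 and 5.99 CPM) and was named after its values were seen. Among the leading genes the log2 ratios ran from -0.41 for Col27a1 (74.8 and 53.9 CPM) to 0.27 for Col4a1 (134 and 164 CPM). Those of Col8a1, Col4a3, Col4a2, Col4a4, Col4a6 and Col1a2 were 0.04, 0.07, -0.07, -0.27, -0.26 and -0.18. Cluster 16 (292 and 269 cells) carried most of it, with 1239 and 1128 CPM over all collagen members, against 358 and 462 CPM in cluster 9 (572 and 436 cells), whose median depth was 776 and 726 UMIs. Choroid plexus markers summed to 10639 and 19227 CPM in the class, and the 8 microglia markers to 3413 and 3263 CPM. In microglia-like cells, the class with the highest Col27a1, those 8 markers summed to 13655 and 13772 CPM. Their part in the Col27a1 values of pericyte-like cells was not tested. A further cluster of 385 and 681 cells with both pericyte and endothelial markers was left unnamed and is in neither class.

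Endothelial-like cells, the largest of the vascular classes, showed no collagen past the fold. The class held 3191 and 2918 cells, and the summed ratio was 0.946 (0.922 to 0.971). Of 25 genes measured, 0 were higher (background 0.618% of 15208 genes) and 0 lower (background 0.276%). Col4a1 (211 and 214 CPM) and Col4a2 (168 and 154 CPM) had log2 ratios of 0.02 and -0.12. Col14a1 came nearest to the fold, at 15.3 CPM (13.9 to 16.7) and 7.31 CPM (6.24 to 8.51), a log2 ratio of -0.55, and Col18a1 stood at 15.6 CPM (14.2 to 17.1) and 10.3 CPM (9.06 to 11.8). Both libraries were similar for Col27a1, Col5a2 and Col6a6, with log2 ratios of 0.05, -0.02 and 0.05, and Col8a1 stood at 10.0 and 7.04 CPM.

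Within the endothelial-like class Col18a1 and Col8a1 lay mainly in cluster 6, in which 6 of 6 arterial markers were raised. Col18a1 stood at 46.9 CPM (42.3 to 51.8) and 43.5 CPM (37.3 to 50.4) there, against 3.62 and 2.74 CPM in cluster 1 and 1.30 and 1.94 CPM in cluster 14, in which 5 of 5 venous markers were raised. Col8a1 stood at 28.4 and 26.3 CPM in cluster 6, against 3.18 and 3.34 CPM in cluster 1. In cluster 18 (272 and 192 cells, median 1031 UMIs) 5 of 6 arterial markers were raised as well. Levels of Col18a1 and Col8a1 in cluster 18 are not given here. Cluster 6 held 26.2% of the class's cells in WT and 15.8% in KO. The platelet genes Pf4 and Nrgn were among its leading genes, and 5 platelet markers summed to 49.9 and 9.95 CPM in the endothelial-like class. At resolution 2 a cluster of 251 WT and 30 KO cells carried both endothelial and platelet markers. The part of these markers in the share and in the Col14a1 and Col18a1 values was not tested. Within cluster 6, the summed collagen ratio was 0.987 (0.939 to 1.04), and in cluster 1 it was 1.00 (0.960 to 1.04). Col14a1 was lower in KO within each, at 36.3 CPM (32.3 to 40.6) and 23.1 CPM (18.7 to 28.3) in cluster 6, and 9.36 CPM (7.66 to 11.3) and 4.88 CPM (3.70 to 6.32) in cluster 1. Col4a1 varied less across these clusters, at 200 and 213 CPM in cluster 1, 214 and 202 CPM in cluster 14 and 228 and 239 CPM in cluster 6, while the shallow cluster 18 held 84.3 and 140 CPM.

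Some genes were followed through the other classes after their values were seen. Col14a1, a fibril-associated collagen of mechanically loaded tissue, had 1380 UMIs in WT and 862 in KO over all barcodes. It stood at 24.8 CPM (21.2 to 28.8) and 12.3 CPM (10.3 to 14.6) in CNS-associated macrophage-like cells, its highest class, at 9.07 and 0.856 CPM in pericyte-like cells, and at 7.38 CPM (6.56 to 8.28) and 6.04 CPM (5.31 to 6.84) in microglia-like cells. Its level in smooth muscle-like cells was 8.44 and 9.52 CPM, and astrocyte-like cells held 2 and 12 UMIs of it. Of the classes in which it was measured, Col14a1 was past the fold in fibroblast-like and CNS-associated macrophage-like cells. In the latter the class's own markers summed to 3207 and 2336 CPM and the microglia markers to 7832 and 9588 CPM, and their part in the Col14a1 values was not tested. In astrocyte-like cells Col8a1 stood at 49.3 CPM (40.5 to 59.3) and 9.21 CPM (6.25 to 13.1), although only 1.87% and 2.66% of the cells held a UMI of it, so few cells carried the WT counts. Col25a1 was lower in KO there, opposite to fibroblast-like cells, at 27.5 CPM (21.1 to 35.3) and 10.1 CPM (6.99 to 14.1). Its log2 ratio was -0.90, and only 0.430% and 0.956% of these cells held a UMI of it. Of 21 collagens measured in astrocyte-like cells, 1 was higher (background 2.1% of 12962 genes) and 2 were lower (background 1.43%).

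Of the genes named for single other classes by level, Col23a1 in olfactory ensheathing glia-like cells (441 and 469 CPM) and Col9a3 in choroid plexus-like cells (406 and 378 CPM) were within the fold between libraries. Col6a5 in ependymal-like cells had a log2 ratio of -0.56. Col23a1 in astrocyte-like cells stood at 67.0 CPM (56.8 to 78.6) and 108 CPM (97.5 to 120), a log2 ratio of 0.62, past the fold. Only 4.30% and 5.74% of these cells held a UMI of it, so few cells carried its 151 and 365 UMIs. The intervals do not cover differences between cells. In monocyte-like, neutrophil-like and T cell-like cells the gene so named was Col4a1, at 33.0 and 34.1, 11.6 and 17.0, and 28.97 and 26.3 CPM, against 1.98 and 2.35 CPM in microglia-like cells. The 8 endothelial markers summed to 1974 and 2725 CPM, 1055 and 1204 CPM, and 2270 and 2025 CPM in these classes, against 223 and 189 CPM in microglia-like cells, and their part in the Col4a1 values was not tested. In microglia-like cells Col27a1, Col15a1 and Col6a3 had log2 ratios of 0.02, -0.03 and -0.10.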

How the data were processed

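Each group has 1 deposited matrix of raw UMI counts for genes by cell barcodes. Its header names Cell Ranger 7.0.1, and alignment with STAR to GRCm38 is named in the submitters' processing notes. Strand settings and the annotation release are not given in the sources used here. The collagen genes and all gene lists were chosen with earlier results of these data known.

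Cells were kept with at least 300 genes, 500 UMIs and at most 10% mitochondrial UMIs, and doublets were called with Scrublet in scanpy 1.11.5. Clustering used both libraries at once, after scaling each cell to 10000 and taking logarithms, with 2000 variable genes without collagens (30 principal components, 15 neighbours, Leiden resolution 1, leidenalg 0.10.2). Clusters were named from markers (at least 3, in 25% of cells, log2 fold of at least 1), and classes are whole clusters. Counts were summed per class and library and given as CPM. Intervals are exact Poisson, Clopper-Pearson or conditional binomial (scipy 1.17.1) at 95%. Log2 ratios are KO over WT of CPM + 10, which understates differences of low genes. The value calculation was tested on simulated data.

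Named genes are, in the fibroblast-like, smooth muscle-like, pericyte-like and endothelial-like classes, the 8 highest collagens and those past 1.5-fold with at least 50 UMIs, the top collagen of each other class over 3 times its microglia-like level, the chains of each trimer, and up to 3 genes at each end of each list in fibroblast-like cells. Scaling factors came from edgeR 4.0.16. Alternatives were another scaling, pseudocounts of 1 and 50, other UMI minimums, stricter cells, other classes and clusters and a subtraction of microglia-like levels. Values per cluster, and leaving out cells in which at least 3 markers of an unrelated class summed to 0.25 or 0.5 of that class's median UMI share, were added after the data were seen, and other rules for such cells had been tried before. Gene positions are from GENCODE vM21 and sequences from RefSeq, with 1-based coordinates.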

Additional observations from a re-analysis of the deposited data

How the results depend on the processing

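No paired analysis was possible because each group holds 1 library, and no replicate could be left out. Of 110 values of the comparisons, main ones aside, 77 were kept, 29 moved and 4 reversed. A summed ratio was kept when it lay inside the main 95% interval. A count was kept when within 1.5-fold of the main count, whichever genes made it up and in whichever direction. In fibroblast-like cells the genes behind the count changed in cluster 21 and without second-class cells at 0.25. The summed ratio in fibroblast-like cells (0.947) reversed to 1.04 and 1.01 without cells carrying markers of a second class (shares 0.25 and 0.5) and to 1.14 in cluster 29, and moved to 0.756 with stricter cells and 0.727 in cluster 21. The smooth muscle-like ratio (1.22) reversed to 0.979 without cluster 32 and moved to 1.29 with stricter cells, 1.32 with classes from each cell's own markers and 1.28 without second-class cells at 0.25. The log2 ratio of Col18a1 there reversed to -0.26 without cluster 32. The pericyte-like ratio (0.930), whose interval held 1, crossed 1 to 1.02 at resolution 2 and is not counted among the 4. The endothelial-like ratio (0.946) moved to 0.976 with classes from each cell's markers and to 0.982 without cluster 6. The number of collagens past the fold in fibroblast-like cells (6) was 12 with a pseudocount of 1 (14.5% of all genes past the fold, against 4.93%), 3 with 50 (0.989%) and 0 in cluster 29 (8.66%). In smooth muscle-like cells (6) it was 0 with a pseudocount of 50 (0.355% of all genes, against 2.21%), 0 without cluster 32 (2.07%) and at most 9, with a pseudocount of 1 (9.98%). In pericyte-like cells (1) it was 3 with stricter cells (8.1% of all genes, against 4.21%), 2 with classes from each cell's markers (6.48%), 3 and 2 without second-class cells (6.55% and 5.49%), 5 and 0 with pseudocounts of 1 and 50 (13.1% and 0.396%), 2 with no UMI minimum (1.66%), 0 with 50 UMIs (3.31%) and 2 without cluster 9 (6.98%). In endothelial-like cells (0) it was 2 with a pseudocount of 1 (2.93% of all genes, against 0.894%) and 1 after the microglia-like level was subtracted (2.18%). The count of list genes past the fold in fibroblast-like cells (11) was 25 with stricter cells (15.1% of all genes), 17 without second-class cells at 0.25 (8.74%), and 20 and 4 with pseudocounts of 1 and 50. The number of collagens highest in fibroblast-like cells (13) was 0 when each cell was classed by its own markers, because that class then had fewer than 50 cells in a library and was missing, and its other values under that choice could not be given. Of the log2 ratios of named genes, 465 kept, 54 moved and 1 reversed, and of the shares of cells with a UMI, thinning moved 76 and left 4. The cause of these shifts was not tested. Depth limits low genes: 3 UMIs equal 1.79 and 1.19 CPM in fibroblast-like cells and 2.95 and 6.51 CPM in B cell-like cells.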
